A study of Mus musculus with 28 samples.

Results

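Transcript levels of 10 p53 target and growth arrest genes were followed in the livers of 28 mice. The genes were *Cdkn1a*, *Mdm2*, *Ccng1*, *Bbc3*, *Sesn2*, *Gdf15*, *Phlda3*, *Eda2r*, *Zmat3* and *Trp53inp1*, chosen by name, and each matched 1 of the 49585 gene features of the count table. All 10 were among the 21583 genes that passed the filter on low counts. The mice were C57BL/6JOlaHsd animals of 5 to 7 months, killed after a short daytime fast, in 4 groups of 7, wild type (WT) or *Sirt6* transgenic (SIRT6-tg) mice of either sex. SIRT6 is a chromatin-bound deacetylase of the sirtuin family, and the SIRT6-tg mice carry extra *Sirt6* in the whole body. All SIRT6-tg mice came from 1 transgenic line, backcrossed to this strain and compared with WT littermates, and the promoter of the transgene is not given in the sources used here. The question was whether the transgene changes the liver transcriptome in each sex, and the levels of these genes are given for every group.

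The transcription factor p53 is held at a low level by the ubiquitin ligase Mdm2 and accumulates when DNA is damaged or cells are stressed. It then binds pairs of half-sites near its target genes, which stop the cell cycle, repair DNA, adjust metabolism or kill the cell. In the liver, p53 and its target p21 are best known for restraining the division of hepatocytes after injury and for responding to DNA damage and metabolic stress.

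*Cdkn1a* (ENSMUSG00000023067.13, chr17:29090976-29100727, plus strand) encodes p21, the inhibitor of cyclin-dependent kinases through which p53 halts the cell cycle. *Mdm2* (ENSMUSG00000020184.14, chr10:117688875-117710758, minus strand) closes the negative feedback on p53, and *Ccng1* (ENSMUSG00000020326.7, chr11:40748552-40755311, minus strand) encodes cyclin G1, which also dampens p53. *Bbc3* (ENSMUSG00000002083.13, chr7:16308393-16318205, plus strand) encodes PUMA, which promotes apoptosis at the mitochondrion. *Trp53inp1* (ENSMUSG00000028211.11, chr4:11156431-11174379, plus strand) encodes a stress-induced protein of cell death and autophagy. *Eda2r* (ENSMUSG00000034457.10, chrX:97333840-97377216, minus strand) encodes a receptor of the tumour necrosis factor receptor family for ectodysplasin A2. *Phlda3* (ENSMUSG00000041801.5, chr1:135766119-135769136, plus strand) encodes a repressor of Akt, and *Zmat3* (ENSMUSG00000027663.12, chr3:32334792-32366014, minus strand) a zinc finger protein that binds RNA. *Sesn2* (ENSMUSG00000028893.8, chr4:132492032-132510501, minus strand) encodes sestrin 2, a stress-induced inhibitor of mTORC1, and *Gdf15* (ENSMUSG00000038508.7, chr8:70629393-70632456, minus strand) a circulating hormone of cell stress. The last pair is also driven by the integrated stress response factor ATF4. Positions are those of GRCm38. *Cdkn1a* shares 273 of its 3553 exon bases with AC167363.2, a gene model on the opposite strand. The strand setting of the counting is not given in the sources used here, so reads within those 273 bases cannot be assigned to either gene with certainty.

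The members' promoters were read for the p53 half-site, because binding to such sites is what defines the family. RefSeq windows of GRCm38.p6, from 250 bases before to 50 bases after a transcript start, were found for 8 of the 10 genes, in 12 windows, and not for *Zmat3* and *Trp53inp1*. A half-site without mismatch lay in 3 of the 12 windows, 1 each of *Cdkn1a*, *Mdm2* and *Ccng1*, and in 8.36% of all 32851 windows. A 20-base pair of half-sites with no spacer and at most 2 mismatches lay in 2 of the 12, those of *Cdkn1a* and *Ccng1*, and in 0.326% of all windows. The half-site reads alike on both strands, so 1 search covered both, and the matches of a pair and of a half-site can overlap. In the stretches shown, 5′ to 3′ on the strand of the gene, capitals mark the matches. The *Cdkn1a* stretch (chr17:29090886-29090957, plus strand) lies before the upstream start of this gene. It holds a lone half-site that begins 73 bases before that start and a pair that begins 51 bases before it.
Cdkn1a: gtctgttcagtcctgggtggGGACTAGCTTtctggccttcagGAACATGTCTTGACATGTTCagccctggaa
Mdm2: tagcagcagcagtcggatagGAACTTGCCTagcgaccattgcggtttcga
Ccng1: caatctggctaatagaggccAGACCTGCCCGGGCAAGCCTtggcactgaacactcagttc
The *Mdm2* half-site (stretch chr10:117710915-117710964, minus strand) begins 186 bases before the start. The *Ccng1* pair (stretch chr11:40755442-40755501, minus strand) begins 195 bases before it. The second window of *Cdkn1a* (chr17:29093519-29093818), at a downstream start, held neither match. The windows of *Bbc3*, *Sesn2*, *Gdf15*, *Phlda3* and *Eda2r* held neither match as well, which says only that these letters are not in those bases. For the windows of *Bbc3* and *Phlda3*, the bases after the start were not found in a Gencode transcript of the gene, so these starts rest on RefSeq alone. Of the 3 genes with a match, *Cdkn1a* differed between male genotypes, and *Mdm2* and *Ccng1* did not pass that test.

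Total counts were between 18758863 and 35393069 per library. *Sirt6* was higher in every SIRT6-tg library than in every WT library of its sex, by 6.68 on the log2 scale in males and by 3.39 in females (edgeR quasi-likelihood test, adjusted p = 1.78e-15 and 3.33e-09), with transgene and endogenous reads counted together. *Trp53*, the gene of p53 itself, differed by −0.06 in males and 0.08 in females on the log2 scale (adjusted p = 0.725 and 0.9998). Normalization factors by trimmed mean of M-values (TMM) were 1.06 to 1.17 in male WT libraries, 0.821 to 0.993 in male SIRT6-tg libraries and 0.906 to 1.06 in females. The hepatocyte markers checked, *Alb*, *Apoa1* and *Ttr* among them, were above 0 in all libraries. Levels are given as CPM, the count of a gene scaled to a fixed library size after TMM normalization, and each value is 1 mouse. In bulk liver RNA, fewer cells of a type and less RNA per cell cannot be told apart.

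Per kilobase of exon, the members differed by more than an order of magnitude. In male WT mice *Ccng1* had 12.4 ± 1.15 and *Trp53inp1* 12.2 ± 6.76 CPM per kilobase (SD, n = 7 here and in the next sentences). *Gdf15* with 6.59 ± 2.94 and *Mdm2* with 6.46 ± 0.927 CPM per kilobase came next. *Bbc3* had 3.12 ± 0.760, *Sesn2* 2.29 ± 0.475, *Phlda3* 2.23 ± 1.29 and *Cdkn1a* 2.04 ± 1.19 CPM per kilobase. *Zmat3*, with 0.772 ± 0.0808, and *Eda2r*, with 0.382 ± 0.110 CPM per kilobase, were lowest. The intervals of mean ± SD overlapped between all neighbours in this order except *Mdm2* and *Bbc3*, *Cdkn1a* and *Zmat3*, where the gap was narrow, and *Zmat3* and *Eda2r*. In female WT mice *Ccng1* (13.4 ± 1.24) and *Trp53inp1* (10.4 ± 2.30) were again highest and *Zmat3* (0.624 ± 0.125) and *Eda2r* (0.211 ± 0.108) lowest in CPM per kilobase, while *Cdkn1a* stood at 0.790 ± 0.345. The low genes rest on few reads: *Eda2r* had between 5 and 141 counts per library and *Cdkn1a* between 19 and 421.

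In male mice, 4 of the 10 genes were lower in SIRT6-tg than in WT livers and none was higher at an adjusted p under 0.05. They were *Cdkn1a*, *Eda2r*, *Phlda3* and *Zmat3*, that is the cell cycle inhibitor, the ectodysplasin A2 receptor, the Akt repressor and the RNA-binding protein. The p53 feedback genes *Mdm2* and *Ccng1*, the apoptosis genes *Bbc3* and *Trp53inp1*, and the stress hormone and sestrin genes did not pass the test. Of all genes tested, 11.0% were called lower and 20.7% in either direction in this comparison. The median log2 fold change of the 10 genes was −0.34, against 0.06 over all genes, and 9 of 10 were negative. An unadjusted p under 0.05 was reached by 5 of the 10, all lower.

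*Cdkn1a* had a median of 6.20 CPM in male WT mice, with a lowest value of 2.56 and a highest of 15.1 CPM. Male SIRT6-tg mice had a median of 1.63 CPM, between 0.791 and 3.77 CPM. The ranges overlapped through male WT mouse 5, the lowest of its group, while 5 of 7 SIRT6-tg mice lay below every WT mouse. The log2 fold change was −1.84 (SE 0.34, edgeR adjusted p = 0.000219), which is 3.57-fold lower. Without any 1 library it stayed between −2.05 and −1.56, with adjusted p at most 0.000837.

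*Eda2r* separated the male genotypes completely. Its level was 1.61 to 3.49 CPM in WT (median 2.25) and 0.194 to 1.25 CPM in SIRT6-tg mice (median 0.637), so the lowest WT mouse was above the highest transgenic mouse. The log2 fold change was −1.72 (SE 0.36, edgeR adjusted p = 0.000654), 3.29-fold lower. It was the 1 member of 10 whose male ranges did not overlap, against 6.98% of all genes tested, or 4.37% with the SIRT6-tg range below.

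*Phlda3* lay between 1.2 and 7.21 CPM in WT males (median 3.17) and between 1.12 and 2.97 CPM in SIRT6-tg males (median 1.33). Here the groups overlapped widely. Male WT mice 1, 2 and 5 had 2.89, 1.63 and 1.2 CPM, inside the transgenic range, and SIRT6-tg mouse 7 stood above its group. The log2 fold change was −1.18 (SE 0.34, edgeR adjusted p = 0.0121), 2.26-fold lower, and without any 1 library the adjusted p rose to at most 0.0407.

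*Zmat3* moved least of those called. Its level was 7.95 to 10.5 CPM in male WT (median 8.86) and 4.72 to 8.68 CPM in male SIRT6-tg mice (median 6.33), and 6 of 7 transgenic mice lay below every WT mouse. The log2 fold change was −0.46 (SE 0.13, edgeR adjusted p = 0.0125), 1.38-fold lower.

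**Figure D1:**
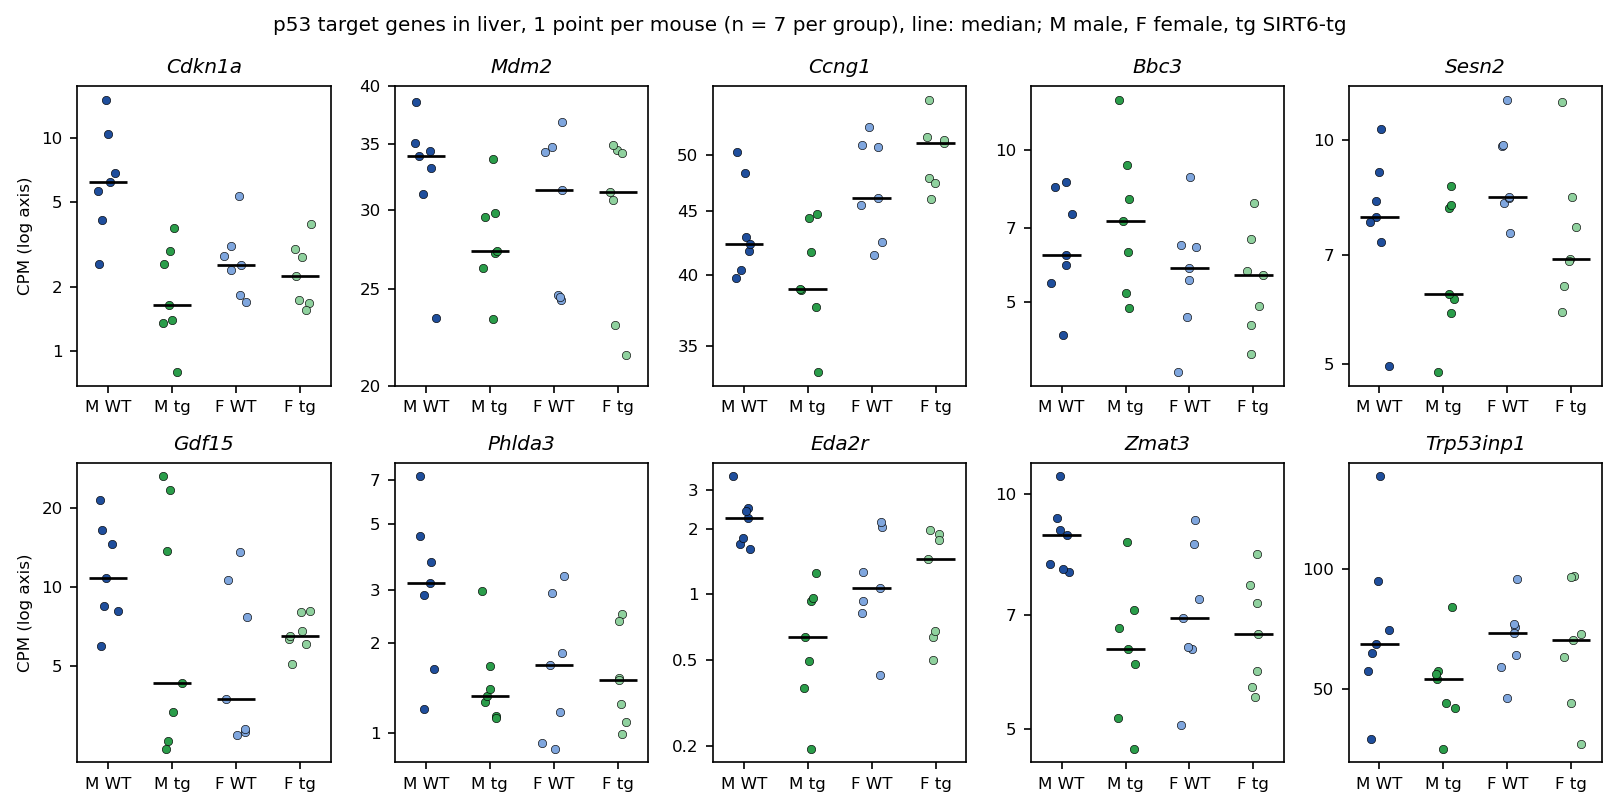
CPM (log axis, 1 panel per gene with its own scale) of the 10 genes in each mouse, 7 points per group, with the group median as a line. In the *Eda2r* panel all male SIRT6-tg points (at most 1.25 CPM) lie below all male WT points (at least 1.61 CPM), whereas the *Gdf15* panel shows male SIRT6-tg points both below and above the WT range.

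Among the genes that did not pass in males, *Trp53inp1* had the largest difference, −0.58 on the log2 scale (SE 0.25, edgeR adjusted p = 0.101). Male WT mouse 1 had 171 CPM of it while the other male WT mice had 37.6 to 93.3, and SIRT6-tg mice had 35.4 to 80.2 CPM. Without that WT mouse the difference shrank to −0.29 (adjusted p = 0.369), and without male WT mouse 6, the lowest of its group, it was −0.70 (adjusted p = 0.0366). *Mdm2* had 23.4 to 38.5 CPM in WT (median 34) and 23.3 to 33.8 CPM in SIRT6-tg mice (median 27.3), a log2 fold change of −0.22 (SE 0.12, edgeR adjusted p = 0.227). *Ccng1* had 39.7 to 50.2 CPM against 33.3 to 44.8 CPM, a log2 fold change of −0.13 (SE 0.08, edgeR adjusted p = 0.280). The 95% intervals of these last differences, −0.46 to 0.02 and −0.29 to 0.03, exclude a change of the size seen for *Cdkn1a*.

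*Gdf15* gave no common direction in male SIRT6-tg mice. Levels in mice 1 to 7 were 13.7, 2.58, 2.42, 3.34, 4.31, 26.3 and 23.3 CPM, against 5.94 to 21.3 CPM in male WT mice. Thus 4 transgenic mice lay below every WT mouse and 2 above every WT mouse, and the log2 fold change was −0.18 with a 95% interval from −1.13 to 0.77 (edgeR adjusted p = 0.848). *Sesn2* differed by −0.21 (SE 0.15, edgeR adjusted p = 0.365), with 4.97 to 10.3 CPM in WT and 4.88 to 8.68 CPM in SIRT6-tg mice. *Bbc3* was the 1 gene with a positive estimate, 0.20 (SE 0.20, edgeR adjusted p = 0.541), at 4.30 to 8.64 CPM in WT and 4.85 to 12.6 CPM in SIRT6-tg mice.

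The 4 male calls held under each of 9 other settings and in each of 28 fits without 1 library. With 2 surrogate variables as covariates *Mdm2* was called as well (−0.18, adjusted p = 0.0222), with the median of all genes at 0.06. More genes were called with library size alone, without normalization factors. Then 8 of the 10 were lower, with *Mdm2*, *Ccng1*, *Sesn2* and *Trp53inp1* added, but the median of all genes also moved to −0.22, a shift of −0.28 from TMM, and 4084 of the 21583 genes were then called lower. Of all male calls, 46.8% were higher in SIRT6-tg mice with TMM, 35.7% with RLE size factors, 26.2% with upper quartiles and 4.89% with library size alone. Relative to that shifted median, *Cdkn1a* was lower by 1.93 on the log2 scale and *Mdm2* by 0.28.

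**Figure D2:**
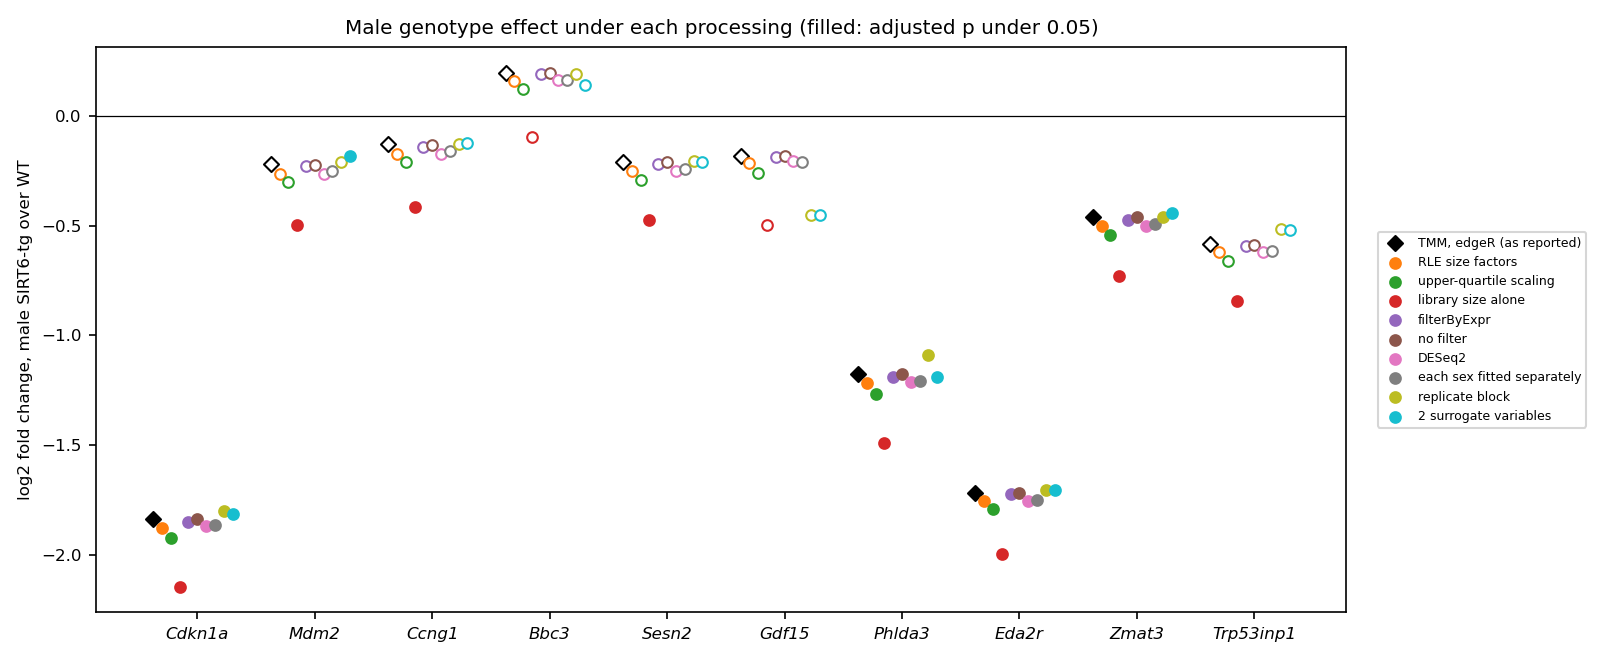
Log2 fold change between male SIRT6-tg and WT mice for each gene (x axis) under each processing (colours, with the reported TMM fit as a black diamond; filled symbols passed an adjusted p under 0.05). *Cdkn1a*, *Phlda3*, *Eda2r* and *Zmat3* are filled throughout, and library size alone gives the lowest value for all 10 genes.

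In female mice none of the 10 genes passed the test between SIRT6-tg and WT. The adjusted p was 0.9998 for every one with edgeR, none had an unadjusted p under 0.05, and DESeq2 also called none. Over all genes tested, 0.0278% were called and 5.62% had an unadjusted p under 0.05. Log2 fold changes lay between −0.25 (*Sesn2*) and 0.09 (*Gdf15*), with a median of −0.04 against 0.00257 over all genes. *Cdkn1a* was 1.69 to 5.34 CPM in female WT (median 2.54) and 1.55 to 3.94 CPM in female SIRT6-tg mice (median 2.25), a log2 fold change of −0.21 with a 95% interval from −0.89 to 0.46. *Eda2r* was 0.422 to 2.15 CPM in WT and 0.50 to 1.98 CPM in SIRT6-tg females, a log2 fold change of 0.06 (95% interval −0.61 to 0.74). *Phlda3* was 0.886 to 3.34 against 0.990 to 2.49 CPM (log2 fold change −0.19, 95% interval −0.87 to 0.48), and *Zmat3* 5.07 to 9.26 against 5.50 to 8.38 CPM (log2 fold change −0.09, 95% interval −0.35 to 0.17). These intervals do not reach the male estimates for the 4 genes, but those estimates have intervals of their own. For *Phlda3* and *Zmat3* the male 95% intervals, −1.83 to −0.52 and −0.72 to −0.20, overlap the female ones.

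For *Cdkn1a* and *Eda2r*, 2 of the 10 genes, the effect of the transgene was more negative in males than in females. Over all genes, 3.84% were called in that direction and 5.05% in either. The male effect on *Eda2r* lay below the female one by a log2 difference of −1.78 (SE 0.50, edgeR adjusted p = 0.0306), and for *Cdkn1a* the difference was −1.62 (SE 0.48, edgeR adjusted p = 0.0457). Both calls stand near the threshold. For *Eda2r* the call was lost without male WT mouse 7, male SIRT6-tg mouse 1, 4 or 6, female WT mouse 5, or female SIRT6-tg mouse 2, 4 or 7, with adjusted p at most 0.0594. For *Cdkn1a* it was lost in 19 of the 28 fits without 1 library, with log2 differences as small as −1.34 and adjusted p up to 0.0783, and with no filter on low counts (adjusted p = 0.0896). Those 19 left out male WT mouse 3, 4, 6 or 7, male SIRT6-tg mouse 1, 2, 3, 4 or 5, female WT mouse 1, 2, 3, 5, 6 or 7, or female SIRT6-tg mouse 1, 2, 3 or 5. *Phlda3*, at −0.98 (SE 0.48), had an adjusted p of 0.266 and passed with 2 surrogate variables (−1.16, adjusted p = 0.00406), and the other 7 genes lay between −0.57 (*Trp53inp1*) and 0.28 (*Bbc3*) with adjusted p of 0.281 or more. Of these, *Ccng1* passed with library size alone (−0.51, adjusted p = 0.0140). The transgene was also expressed less in females, since the *Sirt6* effect differed between the sexes by 3.29 on the log2 scale (edgeR adjusted p = 6.96e-06), so sex and transgene level cannot be told apart in this difference.

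**Figure D3:**
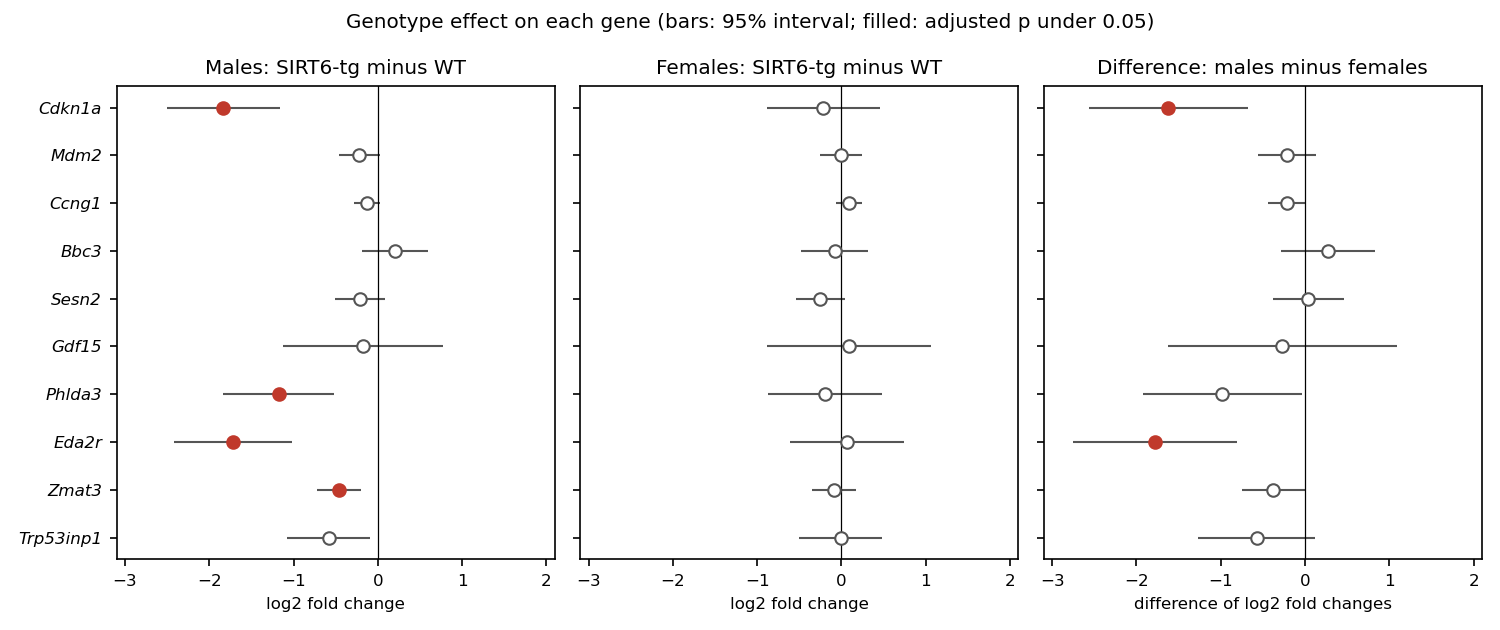
Log2 fold change of SIRT6-tg over WT in males and females and the difference between them (x axes) for the 10 genes, with 95% intervals as bars and filled points where the adjusted p was under 0.05. Filled points are *Cdkn1a*, *Phlda3*, *Eda2r* and *Zmat3* in males and *Cdkn1a* and *Eda2r* in the difference, and the female panel has none.

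Among WT mice, which are shared with the genotype comparisons, *Cdkn1a* was the 1 gene of 10 that differed between the sexes, and it was higher in males. Its log2 difference was 1.38 (SE 0.33, edgeR adjusted p = 0.00549), 2.59-fold, and 5 of 7 male WT mice lay above every female WT mouse. Of all genes, 6.65% were called higher in male WT mice and 12.4% in either direction. The ranking of *Cdkn1a* medians was therefore male WT, female WT, female SIRT6-tg and male SIRT6-tg, at 6.20, 2.54, 2.25 and 1.63 CPM, and the neighbouring pairs after the first did not pass the test (adjusted p = 0.9998 and 0.658). *Phlda3* (log2 difference 0.94, SE 0.33) and *Eda2r* (0.87, SE 0.33) had adjusted p of 0.0611 and 0.0878 and passed in some other settings. *Gdf15* (0.96, SE 0.49, adjusted p = 0.228) had its wide spread here too, with 2.74 to 13.6 CPM in female WT mice. The other 6 genes lay between −0.19 (*Sesn2*) and 0.31 (*Zmat3*).

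Among SIRT6-tg mice the 1 gene called between the sexes was *Ccng1*, lower in males by a log2 difference of −0.33 (SE 0.08, edgeR adjusted p = 0.00356). The difference is small, 1.25-fold, but the ranges did not meet: males had 33.3 to 44.8 CPM and females 46.0 to 55.4 CPM. Of all genes, 10.2% were called lower in male SIRT6-tg mice, 23.1% in either direction, and 6.13% had ranges that did not overlap. In WT mice the *Ccng1* ranges overlapped, at 39.7 to 50.2 CPM in males and 41.5 to 52.7 CPM in females (log2 difference −0.11, edgeR adjusted p = 0.431). *Cdkn1a*, at 0.791 to 3.77 CPM in male and 1.55 to 3.94 CPM in female SIRT6-tg mice, differed by −0.25 (SE 0.35, edgeR adjusted p = 0.658). *Eda2r* (−0.91, SE 0.36, adjusted p = 0.0708) and *Bbc3* (0.45, SE 0.20, adjusted p = 0.109) did not pass.

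Of 30 other p53 targets, 9 were lower and 3 higher in male SIRT6-tg than in male WT mice, against 11.0% and 9.68% of all genes, with a median log2 fold change of −0.06. With library size alone none of the 30 was higher, and without male WT mouse 2 or 4 only 1 was. Genes of apoptosis were among the lower ones, the higher ones and those that did not pass. *Apaf1*, the scaffold of the apoptosome, fell by 1.01 on the log2 scale (SE 0.15, edgeR adjusted p = 6.85e-06), from 3.80 to 7.37 CPM in WT to 1.73 to 3.18 CPM in SIRT6-tg males. *Pmaip1*, which encodes NOXA, fell by 1.61 (SE 0.24, edgeR adjusted p = 1.05e-05), with 1.24 to 3.54 against 0.60 to 1.22 CPM. *Psrc1*, which encodes a spindle protein, fell by 2.47 (SE 0.42) and *Rap2b*, a small GTPase, by 0.92 (SE 0.17), with edgeR adjusted p of 6.28e-05 and 0.000162. The death receptor *Tnfrsf10b* fell by 1.53 (SE 0.33, edgeR adjusted p = 0.000916). It rests on few reads, 7 to 23 counts per library in male WT and 1 to 7 in male SIRT6-tg mice. The 3 higher genes were *Perp* (0.49, SE 0.12), *Ephx1* (0.30, SE 0.09) and *Ei24* (0.23, SE 0.08). *Perp* and *Ei24* are genes of apoptosis too, and *Ephx1* encodes a detoxifying epoxide hydrolase of hepatocytes. *Bax*, a classic apoptotic target, was at −0.24 (SE 0.18, edgeR adjusted p = 0.371). The apoptosis genes *Fas* (−0.07), *Aen* (−0.41) and *Pidd1* (−0.08) did not pass either, with edgeR adjusted p of 0.793, 0.0793 and 0.793. The effect differed between the sexes for 4 of the 30, *Apaf1*, *Pmaip1*, *Tnfrsf10b* and *Rap2b*, against 5.05% of all genes. In females none of the 30 passed, while 5 had an unadjusted p under 0.05, against 5.62% of all genes.

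Of p53 and 13 of its relatives and regulators, 13 were tested (*Trp63* was too low). In male SIRT6-tg mice 1 was lower (5 with library size alone, 2 with 2 surrogate variables and 2 without male SIRT6-tg mouse 4), against 11.0% of all genes. This was *Chek1*, a checkpoint kinase of dividing cells, at 0.60 to 1.31 CPM in WT and 0.333 to 0.60 CPM in SIRT6-tg males (log2 fold change −1.14, SE 0.19, edgeR adjusted p = 4.95e-05). The ubiquitin ligase gene *Rchy1* (0.25, SE 0.11), *Trim24* (−0.42, SE 0.19) and the deubiquitinase gene *Usp7* (0.18, SE 0.09) had the next lowest adjusted p, of 0.0981, 0.123 and 0.162. None of the 13 was higher in males, except 2 with 2 surrogate variables, and in females none passed or had an unadjusted p under 0.05.

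The 18 other growth arrest genes are CDK inhibitors, pocket proteins, GADD and GAS genes, and a few outside these classes, *Klf6* among them. In male SIRT6-tg mice 5 were lower and 2 higher, against 11.0% and 9.68% of all genes, with a median of −0.14. *Cdkn2a*, which encodes the p16 and p19ARF inhibitors, had 0.566 to 3.88 CPM in WT and 0.106 to 0.371 CPM in SIRT6-tg males (log2 fold change −3.0, SE 0.43, edgeR adjusted p = 4.56e-06). *Rbl1*, the pocket protein p107 of cycling cells, fell by 1.58 (SE 0.18, edgeR adjusted p = 2.42e-07), *Klf6* by 1.05 (SE 0.18) and *Cdkn2c* by 0.73 (SE 0.14). *Gadd45b* also fell, by 1.31 (SE 0.33, edgeR adjusted p = 0.00426). *Gas2* rose by 0.47 (SE 0.11) and *Gas1* by 0.51 (SE 0.17), and 1 of the 18 rather than 2 was higher without male WT mouse 1, 4 or 7 or male SIRT6-tg mouse 1, 3 or 4. The sex difference in the effect was called for 6 of the 18, against 5.05% of all genes. Of these 6, 5 were more negative in males (3.84% of all genes were), among them *Cdkn2a*, *Rbl1* and *Cdkn2c*, and 1 was more positive, *Gas2*. The more negative ones were 3 without male WT mouse 6, male SIRT6-tg mouse 2, 3, 4 or 5, female WT mouse 2 or 5, or female SIRT6-tg mouse 1. In females none of the 18 passed, and 2 had an unadjusted p under 0.05, against 5.62% of all genes.

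The cell division genes that p53 is known to lower through p21 were themselves lower. Compared with male WT mice, 14 of 16 were lower in male SIRT6-tg mice and none was higher, against 11.0% and 9.68% of all genes. Their median log2 fold change was −2.24. *Ccna2* (−2.24, SE 0.24), *Top2a* (−2.14, SE 0.23), *Mki67* (−2.30, SE 0.25) and *Cdc20* (−3.0, SE 0.35) had the lowest adjusted p, from 7.24e-08 to 3.44e-07 with edgeR. *Mki67*, a marker of cycling cells, had 4.15 to 19.3 CPM in male WT mice and 1.01 to 2.31 CPM in male SIRT6-tg mice. So *Cdkn1a* and the division genes were both lower in the livers of male SIRT6-tg mice. All 16 division genes were also higher in male WT than in female WT mice, as *Cdkn1a* was, against 6.65% of all genes. None of the 16 passed between female genotypes (median −0.46), where 3 had an unadjusted p under 0.05, against 5.62% of all genes. The effect of the transgene was more negative in males than in females for 9 of the 16, against 3.84% of all genes, and more positive for none.

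Of 18 genes of the ATF4 response, 4 were higher and 4 lower in male SIRT6-tg mice, against 9.68% and 11.0% of all genes. Their median log2 fold change was 0.07. *Atf3* (−1.91, SE 0.34), *Phgdh* (−2.40, SE 0.45) and *Nupr1* (−1.38, SE 0.26) were lower with edgeR adjusted p from 0.000131 to 0.000185. *Slc7a11*, a cystine transporter gene, was lower as well (edgeR adjusted p = 0.000138), at 0.10 to 0.933 CPM in WT and 0 to 0.0833 CPM in SIRT6-tg males, where no library had more than 2 counts. *Atf4* itself (0.32, SE 0.10), *Chac1* (1.09, SE 0.27), *Shmt2* (0.45, SE 0.09) and *Herpud1* (0.59, SE 0.15) were higher. *Ddit3* (0.06) and *Trib3* (0.08) did not pass, and neither did any of the 18 in females with edgeR, while DESeq2 called 1. In females 4 had an unadjusted edgeR p under 0.05, against 5.62% of all genes. The ATF4-driven members *Sesn2* and *Gdf15* thus stood beside a set with calls in both directions in males, as there were over all genes.

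Some markers of other cell types moved with the male results. Of all genes tested, 11.0% were called lower and 9.68% higher in male SIRT6-tg than in male WT mice. Of 13 leukocyte markers 12 were lower in male SIRT6-tg mice (median log2 fold change −1.28), and their summed level was 364 to 919 CPM in male WT, 209 to 348 CPM in male SIRT6-tg mice, and 268 to 531 and 214 to 475 CPM in the females of these genotypes. Of these, *Ptprc*, the pan-leukocyte marker CD45, fell by 1.71 (SE 0.17) and *Itgax*, a dendritic cell marker, by 3.09 (SE 0.26), with edgeR adjusted p of 3.17e-08 and 5.16e-09. The T cell markers *Cd8a* and *Cd3e* fell by 3.67 (SE 0.31) and 2.56 (SE 0.27), with edgeR adjusted p of 5.85e-09 and 5.92e-08. Of 12 endothelial, stellate and biliary markers 5 were lower and none higher in males. The 12 together had 251 to 310 CPM in WT and 173 to 219 CPM in SIRT6-tg mice. *Col1a1*, a collagen gene of activated stellate cells, fell by 2.99 (SE 0.28), and the stellate markers *Lrat*, *Des* and *Reln* by 0.68, 0.70 and 0.38. The last of the 5 was the endothelial marker *Pecam1*, at −0.37 (edgeR adjusted p = 0.0496). No other endothelial marker passed, and no biliary marker did. The count of 5 became 3 without male WT mouse 4 or male SIRT6-tg mouse 2, 4 or 7. Of 10 hepatocyte markers 3 were higher and none lower in males, *Serpina1c* by 0.86 (SE 0.20), *Alb* by 0.35 (SE 0.11) and *Cyp2e1* by 0.36 (SE 0.12), with sums of 103077 to 144713 CPM in WT and 129777 to 176134 CPM in SIRT6-tg mice. The 3 became 1 without male WT mouse 3, 4 or 7 or male SIRT6-tg mouse 4. None of these markers passed in females, and none was at 0 in any library. In females 2 leukocyte and 2 endothelial, stellate or biliary markers had an unadjusted p under 0.05, against 5.62% of all genes. Leukocyte markers were higher in male than in female WT mice for 7 of 13, against 6.65% of all genes. For 6 of the 13 the effect of the transgene was more negative in males than in females, against 3.84% of all genes, and for none more positive. Their part in the lower *Cdkn1a*, *Eda2r*, *Phlda3* and *Zmat3* levels was not tested.

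**Figure D4:**
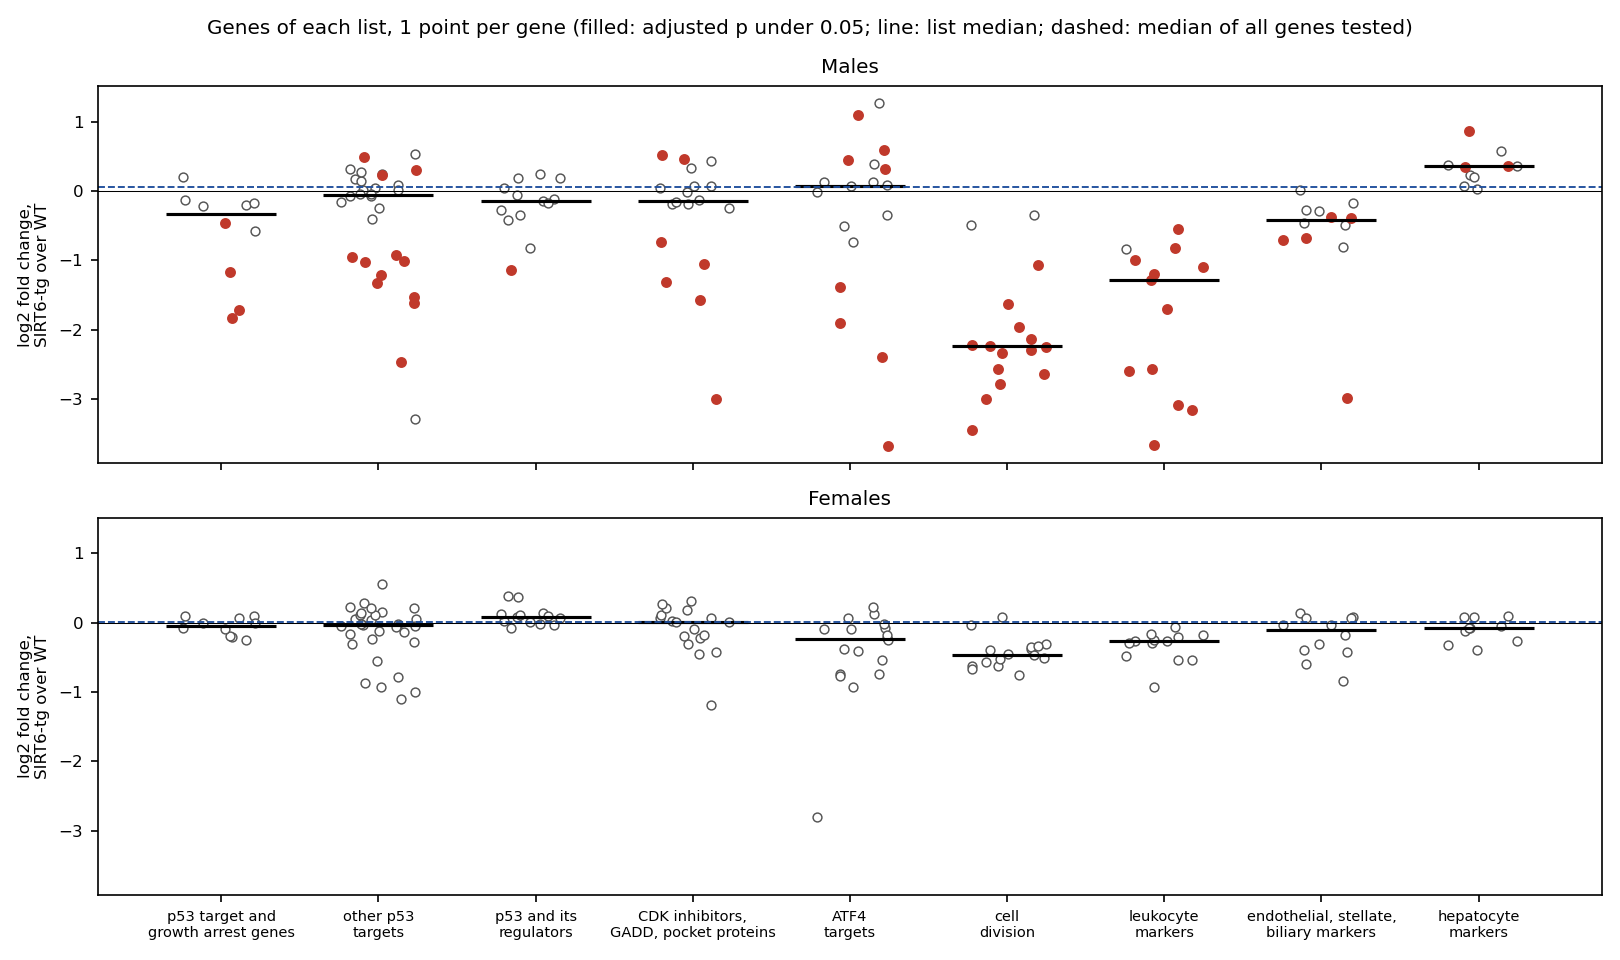
Log2 fold change of SIRT6-tg over WT in males (top) and females (bottom) for each gene of each list (1 point per gene, filled where the adjusted p was under 0.05), with the list median as a black line and the median of all genes as a dashed line. In males the cell division list (median −2.24) and leukocyte markers (median −1.28) lie lowest, the 10 p53 target and growth arrest genes have a median of −0.34, and no point is filled in females.

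Within the groups, the 10 genes did not vary as 1 block. After the group means were subtracted from log2 CPM, *Cdkn1a* was compared with each of the other 9 genes over 28 mice, by permutation within groups and with adjustment over the 9 relations. *Phlda3* followed *Cdkn1a* most closely, with r = 0.67 (permutation test, adjusted p = 0.00396) and rho = 0.57 (adjusted p = 0.0210 by permutation). *Gdf15* came next with r = 0.61 (permutation test, adjusted p = 0.00675) and rho = 0.56 (adjusted p = 0.0210 by permutation). Without male WT mice 6 and 5, the farthest from the median of *Cdkn1a*, r was 0.52 for *Phlda3* and 0.64 for *Gdf15*. *Sesn2* went the other way, with r = −0.51 (permutation test, adjusted p = 0.0367), but its rho of −0.40 had an adjusted permutation p of 0.140, and r was −0.31 without those mice, so this relation rests on them, and it did not pass with library size alone (r = −0.41). The other 6 genes had r between −0.32 (*Mdm2*) and 0.38 (*Bbc3*), with permutation adjusted p of 0.149 or more. *Eda2r*, which shared the male difference with *Cdkn1a*, had an r of 0.10 over the 28 mice. Pairs without *Cdkn1a* were not tested, and their r ran from −0.70 (*Mdm2* and *Phlda3*) to 0.67 (*Mdm2* and *Zmat3*).

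Male WT mouse 6 had the highest *Cdkn1a* (15.1 CPM) and *Phlda3* (7.21 CPM) of all 28 mice. In the same liver *Mdm2* (23.4 CPM), *Sesn2* (4.97 CPM) and *Trp53inp1* (37.6 CPM) were the lowest of the male WT group. The first surrogate variable is an axis of variation across the transcriptome that the groups do not explain. On it male WT mouse 6 had the highest value of the 28 (0.412), closely followed by male SIRT6-tg mouse 7 (0.379). The part of that variation in the relation of *Cdkn1a* to *Phlda3* and *Gdf15* was not tested. Within single groups of 7, r between *Cdkn1a* and *Phlda3* was 0.94 in male WT, 0.61 in male SIRT6-tg, 0.57 in female WT and 0.24 in female SIRT6-tg mice. For *Gdf15* it was 0.53, 0.92, 0.52 and −0.19 in the same order. For *Eda2r* it was 0.47, −0.30, 0.78 and −0.24, so positive in both WT groups and negative in both SIRT6-tg groups, and the difference between genotypes was not tested. In male SIRT6-tg mice the 3 animals with 13.7 CPM or more of *Gdf15* were also the 3 with the highest *Cdkn1a*, at 2.55, 2.93 and 3.77 CPM.

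**Figure D5:**
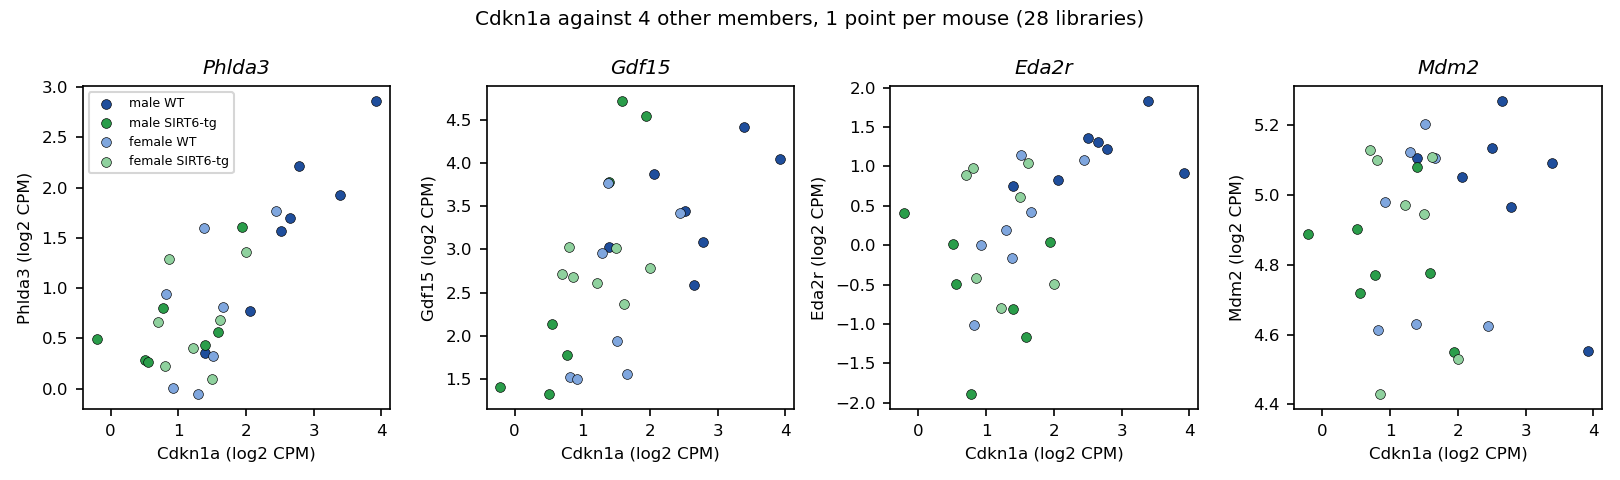
Log2 CPM of *Cdkn1a* (x axes) against *Phlda3*, *Gdf15*, *Eda2r* and *Mdm2* (y axes), 1 point per mouse coloured by group. After group means were removed, r over the 28 mice was 0.67 for *Phlda3*, 0.61 for *Gdf15*, 0.10 for *Eda2r* and −0.32 for *Mdm2*, and *Eda2r* rises with *Cdkn1a* in both WT groups (r = 0.47 and 0.78) but not in the SIRT6-tg groups.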

How the data were processed

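Liver RNA of 28 mice was profiled, 7 mice in each of 4 groups of sex and genotype. Per the labels and methods, the authors extracted total RNA with TRI reagent, made NEBNext Ultra libraries, sequenced them single-end, aligned the reads to mm10 (GRCm38) with STAR 2.5.0a and counted uniquely mapped reads on Gencode genes with HTSeq. The strand setting is not given in the sources used here. The authors deposited raw counts for 49585 features without normalization, and 0 columns were left unmapped. Symbols, positions and exon lengths came from the Gencode vM21 annotation of the same build, with a symbol for 49326 features.

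Genes were kept where the mean normalized count reached 0.5. Counts were scaled by TMM and tested with the robust quasi-likelihood F-test of edgeR 4.0.16 (R 4.3.3), with all 28 libraries in 1 fit of 4 groups, no covariate, and Benjamini-Hochberg adjustment over all 21583 genes. An adjusted p under 0.05 was called. The fit was tested on simulated data with known fold changes. Each library is a separate mouse, and no pair within a group agreed within sampling noise (chi-square per gene at least 13.3). Log2 CPM for correlations used a prior count of 2, and the two-sided permutation tests used 100000 permutations of mice within groups. Intervals of fold changes are at the 95% level by the normal approximation. Counts of 5 to 5802 per library lie behind the members' values, and counting error is only part of their spread.

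Alternatives were RLE and upper-quartile scaling, library size alone, the filterByExpr filter, no filter, DESeq2 1.42.0, each sex fitted separately, a replicate block, 2 surrogate variables (sva 3.50.0), and each library left out in turn. The 10 genes and all gene lists were chosen with earlier results of these data known. Named genes were the 10 members, *Sirt6*, *Trp53*, and from each list the 4 genes with the lowest adjusted p in males plus up to 4 called in females or in the difference between the sexes. *Perp*, *Ephx1*, *Ei24*, *Bax*, *Gas1*, *Gadd45b*, *Atf4*, *Shmt2*, *Herpud1*, *Ddit3*, *Trib3* and *Apoa1* fall outside this rule. So do *Fas*, *Aen*, *Pidd1* and *Pecam1*. The names of all these genes were picked with their values already known.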

Additional observations from a re-analysis of the deposited data

Results flagged for a closer look

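For normally distributed values, chance alone sets about 1 group in 20 apart at Dixon's critical value for 7 samples (0.568). CPM values need not be normal, and the ratio was not taken on the log2 scale. Among the 40 combinations of gene and group, 3 had a highest mouse set apart from the other 6 by more than that value in CPM. They were *Cdkn1a* in female WT mice, where mouse 4 had 5.34 CPM and the next mouse 3.10, *Phlda3* in male SIRT6-tg mice, where mouse 7 had 2.97 CPM and the next 1.67, and *Trp53inp1* in male WT mice, where mouse 1 had 171 CPM and the next 93.3. Female WT mouse 4 was also the highest of its group for *Phlda3* (3.34 CPM), and male SIRT6-tg mouse 7 was the highest of its group for *Cdkn1a* (3.77 CPM).

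The effect of the transgene in males minus that in females was −1.62 on the log2 scale for *Cdkn1a* and −1.78 for *Eda2r*. Both were tested as an interaction in edgeR, with adjusted p of 0.0457 and 0.0306, beside 5.05% of all genes called in that test.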

How the results depend on the processing

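The 4 male calls (*Cdkn1a*, *Eda2r*, *Phlda3*, *Zmat3*) and the absence of female calls held in every setting and in every fit without 1 library. With library size alone, 8 genes were lower in males, 3 were called in the difference between the sexes (with *Ccng1* added) and 4 were higher in male than in female WT mice. With 2 surrogate variables, 5 genes were lower in males (with *Mdm2* added) and 3 were called in the difference between the sexes (with *Phlda3* added). Without a filter, 1 gene remained called in the difference between the sexes. DESeq2 called 2 genes higher in male WT mice and 2 surrogate variables called 5, and upper-quartile scaling and DESeq2 each called 2 genes lower in male than in female SIRT6-tg mice. Fits without 1 library gave 0 to 2 members called in the difference between the sexes, 1 to 3 higher in male WT mice, and, between SIRT6-tg sexes, 0 to 1 higher and 1 to 2 lower. The cause of these moves was not tested. Among the related lists in males, library size alone called 0 of the other p53 targets and 0 of the growth arrest genes higher (against 3 and 2 with TMM), and 8 growth arrest genes lower (against 5). It called 1 ATF4 target higher and 7 lower (against 4 and 4), 5 p53 regulators lower (against 1), 1 hepatocyte marker higher (against 3) and 8 endothelial, stellate and biliary markers lower (against 5). Upper-quartile scaling and the fit of each sex alone each called 1 other p53 target, 1 growth arrest gene and 1 hepatocyte marker higher, RLE 1 growth arrest gene higher, filterByExpr 2 ATF4 targets lower, and the fit without a filter 3 endothelial, stellate and biliary markers lower. With 2 surrogate variables the calls were 7 other p53 targets and 6 hepatocyte markers higher (against 3 and 3) and 2 p53 regulators higher and 2 lower (against 0 and 1). Fits without 1 library gave 1 to 3 other p53 targets, 1 to 2 growth arrest genes and 1 to 4 hepatocyte markers higher, and 1 to 2 p53 regulators and 3 to 6 endothelial, stellate and biliary markers lower. Over all genes, male higher calls ran from 210 with library size alone to 4460 with 2 surrogate variables.

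Estimates that changed sign were small and passed in no setting in which they did so. With library size alone, log2 fold changes became −0.0942 for *Bbc3* in males, 0.00979 for *Mdm2* and 0.0108 for *Trp53inp1* in females, −0.0252 for *Bbc3* and −0.25 for *Sesn2* in the difference between the sexes, and 0.0788 for *Ccng1* and 0.00337 for *Sesn2* in WT mice. The *Sesn2* difference between the sexes was also −0.0030 under RLE, −0.0272 under upper-quartile scaling and −0.00223 with DESeq2. With 2 surrogate variables, *Eda2r* and *Trp53inp1* in females were −0.0426 and 0.0563, and *Mdm2* and *Zmat3* between SIRT6-tg sexes 0.0563 and 0.0793. Without 1 library, female estimates crossed 0 for *Bbc3* (−0.18 to 0.0444), *Cdkn1a* (−0.37 to 0.0174), *Eda2r* (−0.0913 to 0.24), *Gdf15* (−0.0404 to 0.39), *Mdm2* (−0.0553 to 0.0586), *Phlda3* (−0.33 to 0.0187) and *Trp53inp1* (−0.12 to 0.0924), as did the *Sesn2* difference between the sexes (−0.0446 to 0.16), *Phlda3* between SIRT6-tg sexes (−0.26 to 0.0921) and *Trp53inp1* between WT sexes (−0.0578 to 0.35).

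Mice of the same number in different groups did not deviate together (correlations from −0.35 to 0.33), so the numbers were not taken as pairs. The replicate block changed no call of a member and gave 2271 genes lower and 1938 higher in males, against 2377 and 2090 without it.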
